A study of Mus musculus with 6 samples.

Results

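The genes described here encode the nuclear subunits and assembly factors of respiratory complex I. They were chosen by symbol, as all probe sets whose platform gene symbol starts with Nduf. The rule found 46 probe sets, one for each of 46 genes, among 22206 probe sets and 19505 named genes on the array. Of the 46 genes, 8 carry the symbol Ndufaf of the assembly factors and 38 do not. No measured value entered the rule. The 7 subunits that mitochondrial DNA encodes, and any core subunit whose symbol was not found, were not analysed here.

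Complex I, the NADH:ubiquinone oxidoreductase, takes electrons from NADH and passes them through a flavin and a chain of iron-sulfur clusters to ubiquinone, while pumping protons across the inner mitochondrial membrane. Its peripheral arm lies in the mitochondrial matrix and holds the core subunits that carry out the electron transfer, its membrane arm holds the proton pumps, and accessory subunits surround both arms. Assembly factors bind intermediates of the complex during its construction and are absent from the finished enzyme. In skeletal muscle, complex I is abundant in oxidative fibers.

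The muscle was the triceps brachii by the sample labels and the study's methods, although one passage of the study's text names the biceps. The mice were males of SAMP-10, an inbred strain with accelerated senescence, and RNA of each mouse was hybridized to its own 1-color array, the Affymetrix Mouse Clariom S. The u40Hz-stimulation group (3 mice, numbered 4, 10 and 11 in the sample labels) lived with constant vibration and inaudible low-frequency sound at 40 Hz for 5 weeks, and the control group (3 mice, numbered 1, 6 and 8) was of the same strain and sex and received no stimulation. The comparison asks whether stimulation went with a difference in muscle gene expression. Each array holds RNA of muscle tissue and not of sorted cells, and the part of the muscle taken was not stated. Fewer cells of a type and less RNA per cell therefore cannot be told apart. Values are log2 signals, with array medians between 5.53 and 5.61. Per-mouse values are given in the order of mice 4, 10 and 11 of the u40Hz-stimulation group and mice 1, 6 and 8 of the control group.

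The 10 skeletal muscle genes checked, among them *Acta1*, *Ckm* and *Mb*, averaged 19.01 to 19.26 in the u40Hz-stimulation group and 18.66 to 19.37 in the control group, which is near the upper limit of the scale at 19.93. One mouse stood apart from the other 5. In u40Hz mouse 4 the 11 measured genes of 13 in an adipocyte list averaged 11.79, against 7.26 and 7.50 in the other u40Hz mice and 6.81 to 8.15 in the controls, and *Ucp1* of brown fat was 15.62, against 2.61 to 4.16 in the other 5 mice. The 12 slow fiber genes averaged 10.48, 12.62 and 12.99 in the u40Hz-stimulation group and 13.52, 8.58 and 10.16 in the control group. The means of the 9 tendon genes were 6.86 to 7.71 in the u40Hz-stimulation group, against 7.90 to 9.29 in the control group. At an unadjusted p under 0.05 (limma), 8 of the 9 were lower, against 3.15% of all probe sets. None of the 9 passed after adjustment, with a smallest adjusted p of 0.635. The 4 endothelial genes averaged 10.49 to 10.74 with u40Hz and 9.78 to 10.63 in the controls, and 3 measured macrophage genes of 4 averaged 7.63 to 8.06 with u40Hz and 7.76 to 8.31 in the controls. The part of these cell types in the differences below was not tested beyond the values given with each result.

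For most complex I genes the difference between stimulated and control muscle was under 2-fold in either direction. The median log2 fold change of the 46 genes (u40Hz minus control) was −0.053, or 0.964-fold, against 0.01 over all probe sets, and single genes lay between −0.60 for *Ndufaf6* and 0.39 for *Ndufc2*. The 95% confidence interval of the difference lay within 2-fold in either direction for 43 of the 46 genes, against 78.7% of all probe sets. The exceptions were *Ndufaf6*, *Ndufaf7* and *Ndufb10*. The mean was lower in the u40Hz-stimulation group for 31 genes and higher for 15, where 48.6% of all probe sets had a lower mean. This split turned round when mouse 4 was left out, with 27 genes higher and 19 lower, and when control mouse 1 was left out, with 25 higher and 21 lower.

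With limma and Benjamini-Hochberg adjustment over all probe sets, 0 of the 46 genes passed an adjusted p of 0.05. The members' smallest adjusted p was 0.711. The share of all probe sets past that threshold was 0.0%, and the smallest adjusted p of any was 0.606. At an unadjusted p under 0.05, 1 complex I gene (*Ndufaf6*, lower) was found, where 7.01% of all probe sets passed in either direction and 3.15% with a lower mean. The groups did not overlap for 3 genes (*Ndufaf6*, *Ndufb4b* and *Ndufb9*), all with lower signals in all u40Hz mice. Over all probe sets 12.4% did not overlap, and 6.05% did not overlap with u40Hz lower, so the members' count is near the background. The standard errors of the members ran between 0.177 and 0.373, and the median spread within the groups was 0.264 (pooled SD), against 0.290 over all probe sets. An exact two-sided permutation test of 3 mice against 3 cannot give a p under 0.1.

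**Figure D1:**
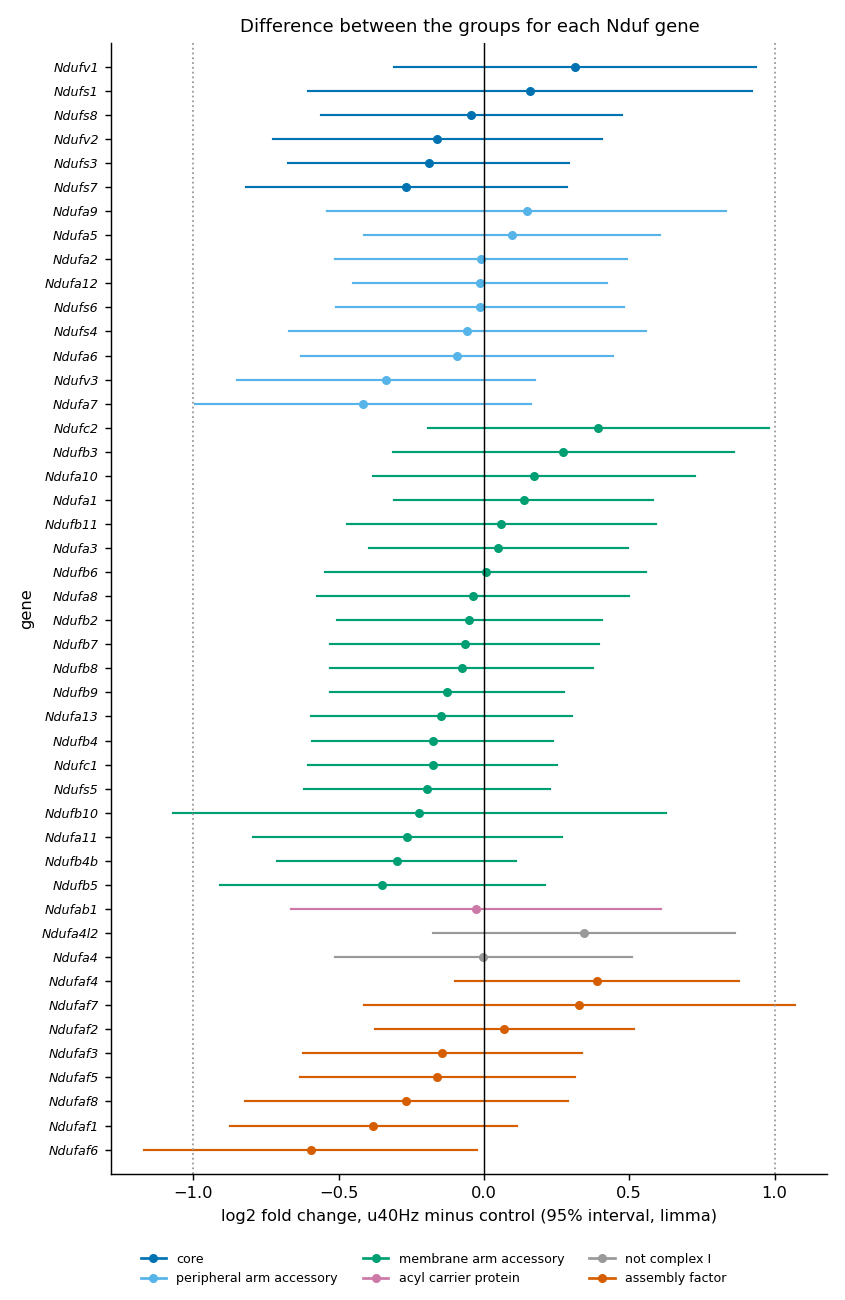
Log2 fold change (u40Hz minus control, x axis) of each of the 46 Nduf genes (y axis), colored by role and sorted within each role. Points are differences of group means of 3 mice each, lines are 95% confidence intervals from limma, and dotted lines mark 2-fold. The interval of *Ndufaf6* alone lies on one side of 0, and 43 of 46 intervals stay between the dotted lines.

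The 6 core subunits measured belong to the arm that takes NADH's electrons to ubiquinone, and none differed between the groups at an unadjusted p under 0.05. Their median log2 fold change was −0.10, with 2 higher and 4 lower means. *Ndufv1*, the flavoprotein that binds NADH, had signals of 15.98, 15.70 and 16.23 in the u40Hz-stimulation group and 16.19, 15.34 and 15.44 in the control group. Control mice 6 and 8 were below all u40Hz mice, while control mouse 1 was exceeded by mouse 11 alone. The difference was 0.31 (SE 0.27, unadjusted p = 0.281, adjusted p = 0.818, limma), and it lay between 0.16 without control mouse 6 and 0.58 (adjusted p = 0.616) without control mouse 1. It was 0.13 with the slow fiber mean as a covariate. With the slow fiber and adipocyte means together it was −0.031, from a fit with few residual degrees of freedom. Its partner in the NADH-oxidizing module, *Ndufv2*, which carries an iron-sulfur cluster, had 16.10, 16.10 and 16.71 in the u40Hz-stimulation group, against 16.78, 16.22 and 16.39 in the control group. The difference of −0.16 (SE 0.25, adjusted p = 0.908) was smaller than the spread within either group, and the groups overlapped. It was −0.0017 without control mouse 1 and −0.36 without mouse 11.

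*Ndufs7*, which holds the last iron-sulfur cluster before ubiquinone, had 14.01, 14.27 and 14.83 in the u40Hz-stimulation group and 14.75, 14.64 and 14.52 in the control group. The stimulated mice were thus both the highest and the lowest, with an SD of 0.42, against 0.12 in the controls. The log2 fold change was −0.27 (SE 0.24, adjusted p = 0.829), and it was −0.087 without mouse 4 and −0.50 without mouse 11. For *Ndufs3*, a core subunit of the module that holds the ubiquinone site, the values were 16.18, 15.95 and 16.37 with u40Hz and 16.62, 16.29 and 16.16 in controls, a log2 fold change of −0.19 (SE 0.21, adjusted p = 0.861) with overlapping groups. Single mice moved it between −0.29 without mouse 11 and −0.058 without control mouse 1. The remaining core genes were *Ndufs1*, the largest core subunit, with a log2 fold change of 0.16, and *Ndufs8*, which carries iron-sulfur clusters of the ubiquinone module, with −0.043. *Ndufs1* spread widely in both groups, from 14.74 to 15.66 with u40Hz and from 14.66 to 15.70 in controls.

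The 9 accessory subunits of the peripheral arm had a median log2 fold change of −0.013, with 2 higher and 7 lower means and no unadjusted p under 0.05. The lowest was *Ndufa7*, with 6.41, 7.21 and 7.13 in the u40Hz-stimulation group and 7.41, 7.45 and 7.14 in the control group. Mouse 4 was far below the rest, and mouse 10 lay above the lowest control. The log2 fold change was −0.42 (SE 0.25, unadjusted p = 0.136, adjusted p = 0.747), and −0.16 without mouse 4. *Ndufv3*, a small accessory subunit beside the NADH-binding site, had 7.06, 7.42 and 7.54, against 7.37, 7.88 and 7.78 in the control group. Here mouse 11 and mouse 10 lay between the controls, and the log2 fold change was −0.34 (SE 0.22, unadjusted p = 0.170, adjusted p = 0.764), or −0.20 without mouse 4 and −0.040 with both marker means as covariates.

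*Ndufa9*, a nucleotide-binding accessory subunit near the ubiquinone site, had 13.97, 13.90 and 14.55 in the u40Hz-stimulation group and 14.57, 13.59 and 13.82 in the control group. The highest u40Hz mouse and the highest control were nearly equal, and the log2 fold change was 0.15 (SE 0.30, adjusted p = 0.933). *Ndufa5* had 15.16, 15.10 and 15.46 with u40Hz and 15.49, 15.04 and 14.90 in controls, which overlapped throughout, with a log2 fold change of 0.097 (SE 0.22, adjusted p = 0.942). The direction of both genes changed with the mouse left out. Of the others, *Ndufs4*, whose loss in mice gives a model of Leigh syndrome, had a log2 fold change of −0.057, and *Ndufa6*, which binds the mitochondrial acyl carrier protein, had −0.093. *Ndufa2*, *Ndufa12* and *Ndufs6* differed by at most 0.013 in either direction, with 95% intervals between −0.51 and 0.49 on the log2 scale.

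Membrane arm accessory subunits formed the largest group, with 20 genes, a median log2 fold change of −0.072 and 7 higher and 13 lower means. None passed an unadjusted p under 0.05, and 2 of the 3 genes without overlap belong here. *Ndufb4b* had 16.68, 16.75 and 16.83 in the u40Hz-stimulation group and 17.08, 17.17 and 16.91 in the control group. Both groups were tight, with SDs of 0.075 and 0.13, and no stimulated mouse reached the lowest control. The log2 fold change was −0.30 (SE 0.18, unadjusted p = 0.133, adjusted p = 0.747). The unadjusted p was 0.0267 without moderation and 0.0373 with an intensity trend in the variance prior, with adjusted p of 0.752 and 0.697.

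By its symbol *Ndufb4b* is a copy of *Ndufb4*, and whether their probe sets can be told apart was not checked here, so its value is uncertain. *Ndufb4* itself had 16.04, 16.01 and 16.19 in the u40Hz-stimulation group, against 16.30, 16.36 and 16.11 in the control group. Mouse 11 lay above control mouse 8, and the log2 fold change was −0.18 (adjusted p = 0.850). *Ndufb9*, another subunit that binds the acyl carrier protein, had 17.25, 17.44 and 17.45 with u40Hz and 17.56, 17.47 and 17.49 in controls. The groups did not overlap, but the gap between them was only 0.02, the log2 fold change was −0.13 (SE 0.18, adjusted p = 0.897), and it was −0.062 without mouse 4. Its values spanned 0.31 over the 6 mice, the narrowest range among the 46 genes.

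The largest positive difference of any member was that of *Ndufc2*, a membrane arm subunit, with 16.03, 15.71 and 16.05 in the u40Hz-stimulation group and 15.99, 15.10 and 15.52 in the control group. Mice 4 and 11 were just above control mouse 1, and mouse 10 was above the remaining controls. The log2 fold change was 0.39 (SE 0.26, unadjusted p = 0.162, adjusted p = 0.758), and single mice moved it between 0.18 without control mouse 6 and 0.62 without control mouse 1. With the slow fiber mean as a covariate it was 0.23. With the slow fiber and adipocyte means together it was −0.0041 (SE 0.25), much smaller than its error. That fit has few residual degrees of freedom, and its adipocyte mean was far higher in mouse 4 than in the other mice. The part of cell types and that of mouse 4 therefore cannot be told apart by it. With each single mouse left out the difference of *Ndufc2* stayed positive. *Ndufb5* had 14.76, 14.80 and 15.38 with u40Hz and 15.64, 15.24 and 15.11 in controls. Mice 4 and 10 were below all controls and mouse 11 was above all but control mouse 1, for a log2 fold change of −0.35 (SE 0.25, adjusted p = 0.776), which was −0.55 without mouse 11 and −0.20 without control mouse 1. *Ndufa11* had 11.67, 11.42 and 12.12 with u40Hz and 12.20, 11.82 and 11.98 in controls. Its mice 4 and 10 were likewise below all controls, with mouse 11 exceeded by control mouse 1 alone, and the log2 fold change was −0.26 (SE 0.23, adjusted p = 0.824), or −0.11 without mouse 10 and −0.46 without mouse 11.

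*Ndufb10* varied most of all members, over a range of 1.45. Its signals were 9.89, 10.47 and 11.20 in the u40Hz-stimulation group and 11.34, 10.42 and 10.47 in the control group, so that the 95% interval of its log2 fold change (−0.22) reached down to −1.07. *Ndufb3* was the next highest member of the arm, with a log2 fold change of 0.27 from 10.11, 10.45 and 10.96 with u40Hz and 10.48, 10.02 and 10.20 in controls. The other 12 membrane arm genes lay between −0.20 (*Ndufs5*) and 0.17 (*Ndufa10*), among them *Ndufa13*, also known as GRIM-19, at −0.15. *Ndufab1*, the mitochondrial acyl carrier protein found in both arms, had a log2 fold change of −0.027 (SE 0.28, adjusted p = 0.987), with 14.81 to 15.49 in the u40Hz-stimulation group and 14.82 to 15.68 in the control group.

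**Figure D2:**
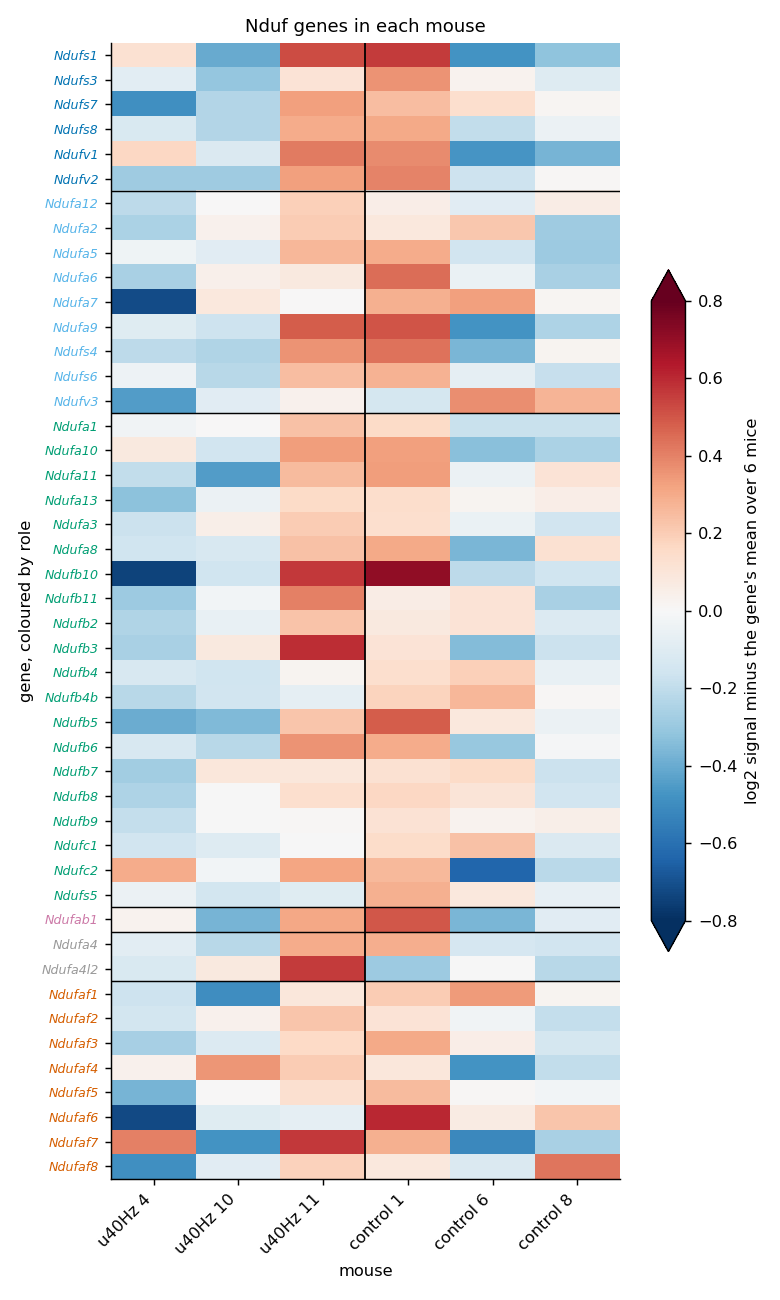
Log2 signal of each of the 46 Nduf genes (rows, colored and separated by role) in each mouse (columns, u40Hz mice left of the line), minus the gene's mean over the 6 mice. Most rows are red in u40Hz mouse 11 and control mouse 1, which held the highest value for 36 of the 46 genes.

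The 8 assembly factors had a median log2 fold change of −0.15 (0.900-fold), with 3 higher and 5 lower. This was the lowest median among the Nduf groups, and it was −0.03 without mouse 4. They held the only member past an unadjusted p of 0.05 (limma), a threshold that 7.01% of all probe sets passed. *Ndufaf6*, which acts early in assembly, had 8.99, 9.62 and 9.64 in the u40Hz-stimulation group and 10.32, 9.78 and 9.94 in the control group. All stimulated mice were below all controls, with a gap of 0.14 between mouse 11 and control mouse 6. The means were 9.42 ± 0.37 and 10.01 ± 0.28 (SD, n = 3 each), a log2 fold change of −0.60 or 0.661-fold (SE 0.25, unadjusted p = 0.0425, adjusted p = 0.711, limma). Without mouse 4, which was the lowest, the log2 fold change was −0.38 (unadjusted p = 0.140), and with the adipocyte mean as a covariate it was −0.41 (unadjusted p = 0.125). Without control mouse 1, the highest, it was −0.44 (unadjusted p = 0.144).

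*Ndufaf4*, a factor of the early ubiquinone module, had a higher mean instead, with 13.26, 13.58 and 13.43 in the u40Hz-stimulation group and 13.32, 12.75 and 13.03 in the control group. Mice 10 and 11 were above all controls, while mouse 4 was just below control mouse 1, and the log2 fold change was 0.39 (SE 0.21, unadjusted p = 0.104, adjusted p = 0.731), or 0.25 without control mouse 6. *Ndufaf3*, which works with *Ndufaf4*, had a log2 fold change of −0.14 (adjusted p = 0.901), so the partners differed in direction, though neither difference passed the threshold. *Ndufaf1*, of the assembly complex for the membrane arm, had 9.66, 9.33 and 9.92 with u40Hz and 10.03, 10.17 and 9.85 in controls. Only mouse 11 overlapped the controls, and the log2 fold change was −0.38 (SE 0.22, unadjusted p = 0.115, adjusted p = 0.739), or −0.23 without mouse 10.

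*Ndufaf8* had 6.56, 6.96 and 7.24 in the u40Hz-stimulation group and 7.14, 6.94 and 7.48 in the control group, with mouse 4 lowest and the others among the controls. The log2 fold change was −0.27 (SE 0.24, adjusted p = 0.830), and it was −0.087 without mouse 4, −0.12 without control mouse 8 and −0.43 without mouse 11. Its known partner *Ndufaf5*, which modifies the core subunit *Ndufs7*, had −0.16 (adjusted p = 0.885). *Ndufaf7*, a methyltransferase for a core subunit, had the largest spread within the groups among the 8 factors (pooled SD 0.490), with 8.50, 7.62 and 8.66 in the u40Hz-stimulation group and 8.38, 7.58 and 7.84 in the control group. The difference, 0.33 on the log2 scale, had a 95% interval between −0.41 and 1.07. *Ndufaf2*, a late assembly factor, had a log2 fold change of 0.07.

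**Figure D3:**
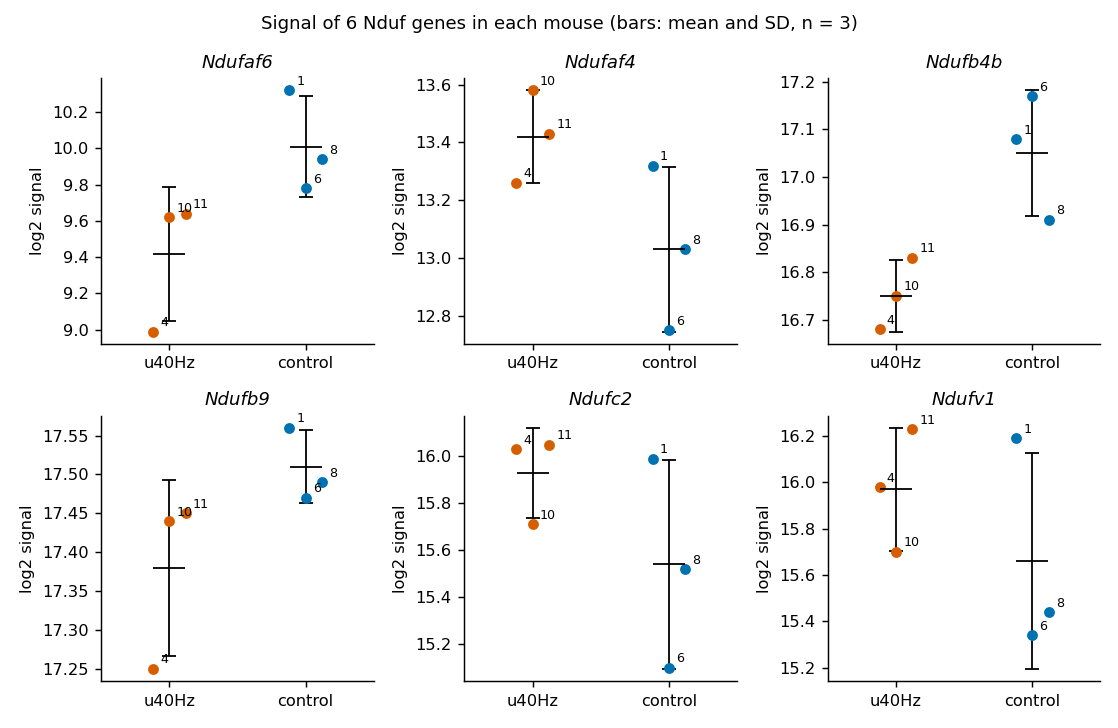
Log2 signals (y axes, each with its own range) of 6 Nduf genes in the u40Hz-stimulation group (left) and the control group (right), each point one mouse with its number, bars showing mean and SD of 3 mice. *Ndufaf6*, *Ndufb4b* and *Ndufb9* show no overlap between the groups, while in *Ndufaf4*, *Ndufc2* and *Ndufv1* control mouse 1 lies among the u40Hz mice.

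The rule also took in *Ndufa4* and *Ndufa4l2*, which are not complex I subunits. *Ndufa4*, a subunit now placed with complex IV, had 17.10, 16.96 and 17.48 in the u40Hz-stimulation group and 17.47, 17.05 and 17.03 in the control group. These values nearly matched, with a log2 fold change of −0.0033 and a 95% interval between −0.51 and 0.51 (adjusted p = 0.997). *Ndufa4l2*, its paralog, known as a hypoxia-induced gene, had 5.53, 5.73 and 6.21 with u40Hz and 5.36, 5.65 and 5.43 in controls. Mice 10 and 11 were above all controls, and the log2 fold change was 0.34 (SE 0.23, unadjusted p = 0.168, adjusted p = 0.762). Without mouse 11 it was 0.15, and without mouse 4 it was 0.49. Without these 2 genes, the 36 complex I subunits measured had a median log2 fold change of −0.053, with 11 higher and 25 lower means.

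Complex I genes varied together between single mice, across the boundary of the groups. The mean log2 signal of the 46 genes was 12.66, 12.73 and 13.09 in the u40Hz-stimulation group and 13.10, 12.77 and 12.76 in the control group. One mouse of each group, u40Hz mouse 11 and control mouse 1, thus stood above the other 4, which lay close together. Control mouse 1 had the highest signal of all mice for 20 genes and u40Hz mouse 11 for 16, together 36 of 46 or 78.3%, where the same pair was highest for 29.4% of all probe sets. The pair was picked from these same values, so 29.4% is not the share for a pair chosen in this way. All 6 core subunits were highest in one of this pair. The exceptions were 8 genes highest in control mouse 6, *Ndufaf4* in mouse 10 and *Ndufaf8* in control mouse 8.

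At the low end, u40Hz mouse 4, also picked from these values, had the lowest signal for 19 genes, or 41.3%, against 20.8% of all probe sets. These included 11 of the 20 membrane arm accessory genes and 4 of the 8 assembly factors. The genes' median distance from their own mean over the 6 mice was −0.18, −0.11 and 0.23 in the u40Hz-stimulation group, and 0.27, −0.049 and −0.11 in the control group. The pair with high complex I signals also had the highest slow fiber means, 12.99 in mouse 11 and 13.52 in control mouse 1. Mouse 10, with a slow fiber mean of 12.62, did not have high complex I signals. With the slow fiber mean as a covariate, 8 of the 46 genes had a higher and 38 a lower fitted mean in the u40Hz-stimulation group, and the difference of *Ndufaf6* was −0.78 on the log2 scale (unadjusted p = 0.00691, adjusted p = 0.777). With the adipocyte mean as a covariate, the split was 24 higher and 22 lower.

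**Figure D4:**
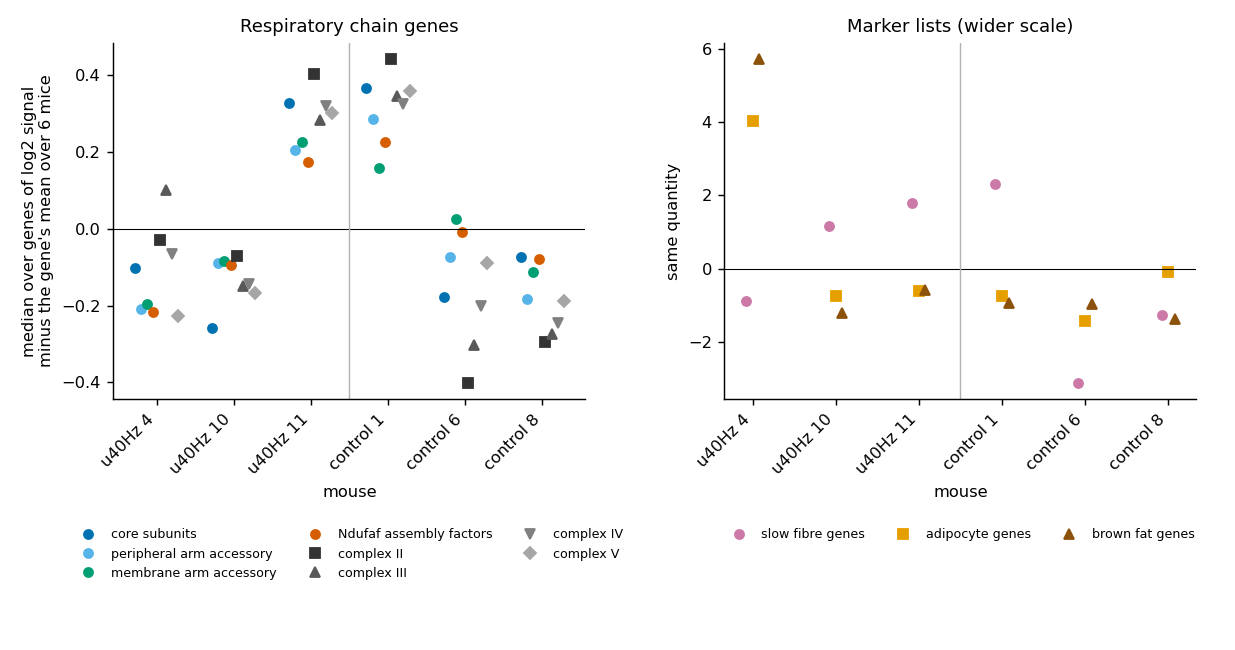
Median over the genes of a group of the log2 signal minus each gene's mean over 6 mice (y axis), for each mouse (x axis, u40Hz mice left of the line). Left, complex I gene groups (circles) beside complexes II to V; right, on a wider scale, the slow fiber, adipocyte and brown fat lists. Complex I genes are highest in u40Hz mouse 11 and control mouse 1, and the fat lists are high in u40Hz mouse 4.

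The genes of the other respiratory complexes followed the same pair of mice. Complex V, the ATP synthase, was closest to complex I in its group difference, with a median log2 fold change of −0.07 and 4 of 15 genes higher. The 4 genes of complex II had a median of 0.13 (3 higher), the 9 of complex III had 0.19 (7 higher) and the 11 of complex IV had 0.027 (7 higher). None of these genes passed an unadjusted p under 0.05, and the difference between complex I and the others was not tested. All these medians lay between the quartiles of all probe sets, −0.18 and 0.21.

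Of 11 complex I assembly factors without an Nduf name, 10 were measured, with a median log2 fold change of 0.13 and 7 higher and 3 lower means. *Tmem186* was lowest, at 6.66, 7.35 and 6.75 in the u40Hz-stimulation group against 7.39, 7.44 and 7.37 in the control group. These groups did not overlap, and the log2 fold change was −0.48 (SE 0.23, unadjusted p = 0.065, adjusted p = 0.717). *Acad9*, *Tmem126b* and *Ecsit* had 0.32, 0.10 and 0.06. *Nubpl*, which supplies iron-sulfur clusters to the complex, had 0.20, and *Dmac2* was highest at 0.39 (adjusted p = 0.747).

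**Figure D5:**
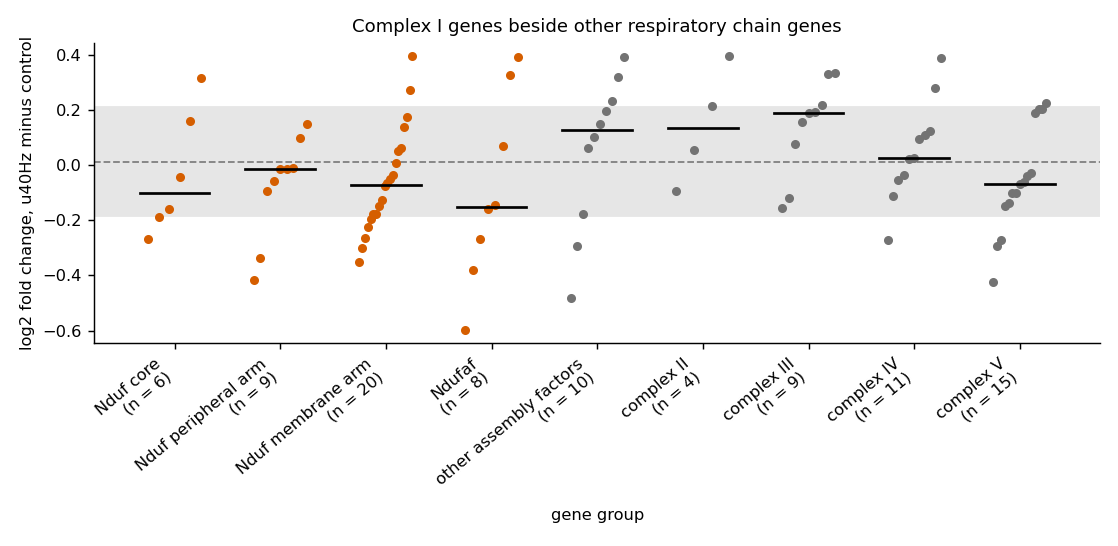
Log2 fold change (u40Hz minus control, y axis) of single genes (points) by group (x axis), Nduf groups in orange and other respiratory chain genes in gray, with black bars at group medians. The gray band spans the quartiles of all probe sets and the dashed line their median, and all group medians lie inside the band.

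Among 9 measured regulators of mitochondrial genes of 10 listed, 2 had a higher mean with u40Hz at an unadjusted p under 0.05 (limma), and 0 passed after adjustment. Over all probe sets, 857 of 22206 had a higher mean at that unadjusted threshold, and 12.4% had groups that did not overlap. *Ppargc1a*, the coactivator PGC-1α, had 13.53, 13.55 and 13.70 in the u40Hz-stimulation group and 13.56, 12.17 and 12.66 in the control group. Control mouse 1 lay among the stimulated mice, and the difference was 0.80 on the log2 scale (unadjusted p = 0.0404, adjusted p = 0.711). *Gabpa*, a subunit of the ETS-family factor GABP, differed by 0.54 on the log2 scale with no overlap (unadjusted p = 0.0469, adjusted p = 0.711). *Yy1* had 10.96, 11.06 and 10.95 with u40Hz and 11.14, 11.38 and 11.42 in controls, without overlap, with a difference of −0.32 on the log2 scale (unadjusted p = 0.112, adjusted p = 0.737). *Nrf1*, the nuclear respiratory factor, had −0.13. The regulators' differences were not set against those of the complex I genes by a test.

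Promoters of the members were read for letters of 4 motifs of such factors on both strands, from 250 bases before to 50 bases after the gene start, since these genes varied together between mice. RefSeq windows of the build GRCm38.p6 were found for 41 of the 46 genes, and entries for *Ndufa2*, *Ndufa4l2*, *Ndufaf6*, *Ndufb9* and *Ndufs1* were missing. The letters AAGATGGC of a YY1 motif occurred in 8 of the 41 windows, or 19.5%, against 3.19% of the windows of 27025 genes. The NRF1 letters GCGCATGC was in 5 (12.2% against 3.05%), the ETS letters CCGGAAG in 6 (14.6% against 9.93%) and the ERR letters TCAAGGTC in 2 (4.88% against 1.18%). At least 1 of the 4 motifs was in 19 windows, or 46.3%, against 15.9% of all genes. The 27025 genes were not matched to the members in expression or base content, so these shares do not single out complex I genes. A match shows only that the letters are there.

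The YY1 letters are shown for all 8 genes because all lay on the sense strand, at varied positions 11 to 39 bases after the gene start, as was noticed after the data were seen. Over all genes, 1.04% had these letters on the sense strand within 50 bases after the start. The letters include ATG, and whether this is the start codon of any of these genes was not checked. The 30 bases around each match read as follows, 5′ to 3′ on the gene's strand, with the matched letters in capitals.
Ndufs7 (chr10:80249462-80249491, + strand): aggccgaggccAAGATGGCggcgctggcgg
Ndufaf8 (chr11:120098933-120098962, + strand): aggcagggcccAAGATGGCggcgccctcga
Ndufc1 (chr3:51408915-51408944, − strand): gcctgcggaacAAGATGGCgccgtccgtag
Ndufb8 (chr19:44555393-44555422, − strand): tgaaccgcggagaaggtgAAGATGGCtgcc
Ndufs4 (chr13:114388045-114388074, − strand): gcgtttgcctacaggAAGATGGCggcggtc
Ndufs6 (chr13:73328433-73328462, − strand): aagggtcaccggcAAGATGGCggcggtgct
Ndufa3 (chr7:3617384-3617413, + strand): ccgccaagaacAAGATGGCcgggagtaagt
Ndufa9 (chr6:126849097-126849126, − strand): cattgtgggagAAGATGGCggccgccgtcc
The log2 fold changes of these genes lay between −0.27 for *Ndufs7* and *Ndufaf8* and 0.15 for *Ndufa9*, with a median of −0.067 and 6 lower and 2 higher means.

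The NRF1 letters are shown for the 3 genes in which a match on each strand overlapped, so that GCGCATGCGC in capitals holds both. One of them is *Ndufaf4*, the Ndufaf factor with the largest positive difference.
Ndufaf4 (chr4:24897960-24897989, + strand): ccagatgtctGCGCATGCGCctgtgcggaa
Ndufaf5 (chr2:140170652-140170681, + strand): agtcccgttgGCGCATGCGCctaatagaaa
Ndufa11 (chr17:56717692-56717721, + strand): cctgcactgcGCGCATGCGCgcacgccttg
*Ndufa6* and *Ndufa8* held a single match, and *Ndufaf4* held 3, not all of them within the bases shown. The log2 fold changes of the 5 genes with NRF1 letters lay between −0.26 for *Ndufa11* and 0.39 for *Ndufaf4*, with a median of −0.093 and 4 lower means. For the ETS letters the median over 6 genes was −0.13, with 5 lower means, and the ERR letters were in *Ndufaf2* and *Ndufb6*, with 0.07 and 0.0067. These medians are descriptions of few genes, and the groups defined by the letters overlap in *Ndufaf8* and *Ndufb6*.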

How the data were processed

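Triceps muscle of 6 mice was measured with one Affymetrix Mouse Clariom S array each. The authors normalized and summarized the scans with the Transcriptome Analysis Console (also named in the submitters' processing notes) and deposited log2 signals per probe set. Its summary method and annotation build were not given in the sources used here. Precision is limited by the number of arrays. Nothing in the labels says more of the replicates than their mouse numbers, and no batch was given.

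Gene symbols came from the platform annotation. Values were used as deposited, with no filter, and 12 of 22206 probe sets had the scale's highest value on every array, and no member did. Both groups were compared (u40Hz minus control) in limma 3.58.1 (lmFit, eBayes; R 4.3.3) on all probe sets, two-sided, with Benjamini-Hochberg adjustment, after a test on simulated data. Members and lists were chosen with earlier results of these data known. Per-mouse values and full statistics were given for members whose groups do not overlap, for the 4 members with the smallest unadjusted p in each role group, and for *Ndufa4* and *Ndufa4l2*. Per-mouse values of *Ndufb4*, *Ndufb10*, *Ndufb3*, *Ndufaf7*, *Tmem186*, *Ppargc1a* and *Yy1* were added after they were seen. Alternatives were other variance priors, no moderation, array weights, median centring, quantile normalization, the mean over probe sets per gene, omission of dim probe sets, a count of genes without overlap, marker means as covariates and leaving out each mouse. Both marker means together, and the count of members with a higher mean under each alternative, were added after seeing the data.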

Additional observations from a re-analysis of the deposited data

How the results depend on the processing

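No member and no other probe set passed an adjusted p under 0.05 under any alternative. The count of complex I genes at an unadjusted p under 0.05, which was 1, was 2 with an intensity trend in the variance prior, 0 with array weights, 0 with the adipocyte mean as a covariate, and 0 to 2 with single mice left out (0 without u40Hz mouse 4 or control mouse 8, 2 without control mouse 1). The gene behind it was *Ndufaf6*, except that without moderation it was *Ndufb4b* alone (*Ndufaf6* unadjusted p = 0.089), and without control mouse 1 *Ndufc2* and *Ndufv1*. Genes without overlap numbered 3. Members with a higher mean, 15 as reported, numbered 24 with array weights, 8 with the slow fiber mean, 24 with the adipocyte mean, and 8 to 27 with single mice left out. The median log2 fold change ran between −0.16 (without u40Hz mouse 11) and 0.087 (without control mouse 1) for the subunit genes, and between −0.26 and −0.03 for the assembly factors. Over all probe sets, 1556 passed an unadjusted p under 0.05, 906 with dim probe sets left out, where fewer are tested, and 1007 (without control mouse 6) to 1838 (without u40Hz mouse 10) with single mice left out. Signs changed for 5 of the 19 genes with full statistics, among them *Ndufc2* and *Ndufv1*, the largest positive differences of the membrane arm and core groups. *Ndufa4* was 0.069 with array weights, 0.032 with the adipocyte mean and between −0.15 and 0.14 with single mice left out. *Ndufa5* was −0.027 with the slow fiber mean, −0.049 with both marker means and between −0.025 and 0.27 with single mice left out. *Ndufa9* was −0.094, −0.18 and between −0.058 and 0.44 in the same settings. With both marker means, *Ndufc2* was −0.0041 (SE 0.25) and *Ndufv1* −0.031 (SE 0.28), both much smaller than their errors. That fit has few residual degrees of freedom, and its adipocyte mean was far higher in u40Hz mouse 4 than in the other mice. The causes were not tested. No paired analysis was possible because the groups share no mouse number. With 3 mice a group, no formal outlier test was made within a group, and most members' 95% intervals allow differences in either direction of less than 2-fold.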
